A study of Mus musculus with 12 samples.

Results

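The response of G1E-ER-GATA-1 cells to activation of GATA-1 is described across all genes. It compares 3 libraries of WT cells kept in 1 uM beta-estradiol for 48 h with 3 libraries of untreated WT cells, 6 of the 12 libraries of the series. G1E cells are a mouse erythroid precursor line derived from embryonic stem cells that lack GATA-1. The line used here carries GATA-1 fused to the hormone-binding part of the estrogen receptor, so that estradiol switches the fusion on. WT means here that the Alas2 cis-elements mutated in other cells of the series were not altered. The other 6 libraries, of Alas2 cis-element double mutant cells treated with estradiol with or without 5-aminolevulinic acid, entered the fit through the shared estimate of the spread, the scaling and the filter on low counts, which kept 12115 genes with all 12 libraries and 11826 with the 6 WT libraries. All groups grew with erythropoietin, Kit ligand from conditioned medium and puromycin. No group received estradiol without the fusion, so effects of estradiol by other routes cannot be told apart from those of GATA-1. The labels do not say whether the untreated cells received a vehicle. Whether the replicates were separate cultures is not given in the sources used here, and p-values then measure only the spread between these libraries, which may be technical.

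GATA-1 is a zinc finger transcription factor that binds the sequence WGATAR, activates genes of the maturing red cell and represses genes of the progenitor. Cells that pass through this step leave the cell cycle, condense the nucleus, remodel the plasma membrane and later lose their organelles. Globin, heme, cell cycle and ribosomal genes are the best known part of this program. The account below concerns the families beyond them, of nuclear transport, chromatin, RNA, ubiquitin ligases, membrane transport and lipids, organelles, signalling, transcription factors and the cytoskeleton.

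The libraries held 20873885 to 34763776 expected counts, which are the read counts that RSEM assigned to each gene. Values below are CPM, counts taken relative to library size after TMM scaling, and means are given ± SD over 3 libraries (n = 3). A gene is said to have risen or fallen when its edgeR adjusted p was below 0.05, its change was at least 2-fold and its 2 groups of 3 libraries did not overlap. Estradiol libraries were more concentrated in a few transcripts: the 10 most abundant genes took 12.76% to 12.97% of the counts, against 5.83% to 5.88% in untreated libraries. Mitochondrially encoded genes took 2.16% to 2.19% and 3.82% to 3.93%. The first estradiol library stood slightly apart, with a chi-square per degree of freedom of 14.1 and 11.4 against the other two, where the other pairs within a group gave 1.74 to 5.13. Of the cell type markers, the erythroid list summed to 2341 to 2417 CPM untreated and 30929 to 31662 CPM with estradiol, with 11 of 14 members higher, and Kit and Gata2 lower. The 15 megakaryocyte markers summed to 215 to 223 CPM and 1919 to 1942 CPM, led with estradiol by Itgb3 (87.9 ± 1.78 to 1784 ± 12.6 CPM). Of the 9 tested, 4 were higher (Itgb3, Gp1ba, Gp9 and Tubb1) and 4 lower (Gp5, Pf4, Itga2b and Treml1). The 12 mast cell and basophil markers summed to 146 to 163 CPM and 4.02 to 4.44 CPM, led by Cpa3. Of the 5 tested, 4 were lower and Cma1 was higher (0 to 0.684 CPM). Of the 12, 8 stayed under 1 CPM in every WT library. Marker lists of granulocytes and macrophages, lymphocytes, and fibroblasts and endothelium stayed at or under 14.5 CPM in every library. The part of such cells in the results was not tested. In such bulk RNA, fewer cells of a type and less RNA per cell cannot be told apart.

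Of 12115 genes tested, 3175 were higher with estradiol (26.2%) and 3664 were lower (30.2%), 56.5% in all, and 89.7% passed the adjusted p alone. The median gene changed by 1.2015 on the log2 scale in either direction, and 5182 genes (42.8%) stayed under 2-fold. At least 16-fold changes comprised 356 rises and 540 falls, and at least 64-fold changes 107 rises and 92 falls. With no scaling for composition, where values are relative to library totals, the split was 2417 higher and 4426 lower, 35.3% higher among the called genes against 46.4%, and the median of all genes moved by -0.34. A count of markers above or of family members below is therefore to be read against 26.2% higher and 30.2% lower, not against 0. These shares also varied with level. Among genes with a mean of 10 to 30 CPM, 14.4% were higher and 37.7% lower, and at 300 CPM or more, 42.5% and 25.2%. The families were not matched for level.

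**Figure D1:**
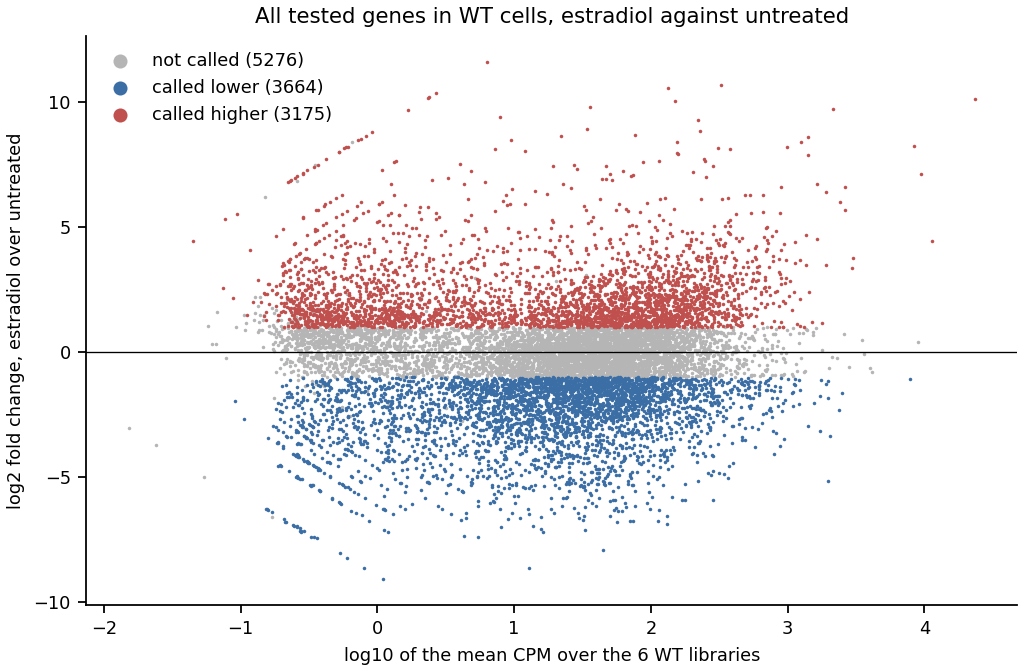
Each point is 1 of the 12115 tested genes, placed by the log10 of its mean CPM over the 6 WT libraries (x axis) and its log2 fold change with estradiol (y axis). The 3175 called rises and 3664 called falls spread over all levels, and the 5276 genes that were not called lie mostly within 2-fold of no change.

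Genes that move proteins through the nuclear envelope were mostly lower or not called. Of 29 tested importins, exportins and Ran cycle genes, 18 were lower and 1 was higher, with a median log2 fold change of -1.68 against -0.03 over all genes. Ipo5, an importin, stood at 1053, 1053 and 1098 CPM untreated and 75.5, 78.1 and 77.7 CPM with estradiol (log2 fold change -3.79, SE 0.0307, adjusted p = 9.57e-37). Xpo1, the exportin that carries proteins with a nuclear export signal, stood at 495, 491 and 523 CPM untreated and 37.5, 36.8 and 39.2 CPM with estradiol (log2 fold change -3.74, SE 0.0323, adjusted p = 4.16e-37). Ipo5 and Xpo1 were lower by 13.9-fold and 13.3-fold, and without overlap of the groups, as a call requires. Ran, the small GTPase that gives this transport its direction, fell from 758 ± 17.2 to 119 ± 3.18 CPM. Rcc1, which loads Ran with GTP on chromatin, fell from 181 ± 3.16 to 9.16 ± 0.748 CPM. The member that rose was Tnpo2, a transportin, from 110.2 ± 2.299 to 286 ± 2.998 CPM. The channel itself followed: 15 of 28 tested nucleoporins were lower and none was higher, with a median of -1.22. Ndc1, which anchors the pore in the membrane, went from 222, 221 and 229.8 CPM to 6.82, 6.95 and 7.29 CPM (log2 fold change -5.001, SE 0.0467, adjusted p = 2.72e-36). Nup205 of the inner ring fell from 266, 272 and 281 CPM to 11.5, 11.8 and 11.4 CPM. Nup43 of the outer ring fell 23.96-fold, while Tpr of the nuclear basket, the nucleoporin with the highest TPM, moved from 849.9 ± 12.1 to 459 ± 8.29 CPM, short of 2-fold. Summed over the family, the transport receptors came to 4088 to 4245 TPM untreated and 1082 to 1110.0 TPM with estradiol, and the nucleoporins to 2669 to 2723 TPM untreated and 992 to 1020.5 TPM with estradiol. TPM is scaled for transcript length. The sums of the groups did not overlap, which also held for nearly all other lists. It held even for a sum that hardly moved, that of HOX, PBX, MEIS and PREP factors (133 to 134 TPM untreated and 135 to 142 TPM with estradiol). With 3 libraries against 3, an exact two-sided permutation test of such a sum cannot give a p below 0.1.

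Proteins imported into mitochondria pass through a second set of pores, and these fell as well. Of 35 tested mitochondrial import genes, 22 were lower and none was higher (median -1.17). Tomm40, the channel of the outer membrane, stood at 143, 143 and 140.0 CPM untreated and 17.7, 16.2 and 15.6 CPM with estradiol (log2 fold change -3.098, SE 0.0447, adjusted p = 1.36e-31). Hspa9, the matrix chaperone that pulls proteins in, stood at 1113, 1087 and 1123 CPM untreated and 201, 199 and 205 CPM with estradiol (log2 fold change -2.46, SE 0.0236, adjusted p = 5.05e-36). Tomm5 fell 8.82-fold and Timm8a1, a chaperone of the space between the membranes, 23.5-fold. Among 26 genes of mitochondrial fusion, fission and cristae, 12 were lower, with Phb, a prohibitin, going from 176 ± 7.06 to 20.6 ± 1.27 CPM, and 2 were higher. Those 2 were Mff (125 ± 1.74 to 447 ± 2.68 CPM) and Fis1 (34.3 ± 1.07 to 167 ± 4.07 CPM), both outer membrane proteins of the fission machinery. Peroxisomal genes were divided, 5 of 32 higher and 8 lower (13 lower with library totals only). Catalase, Cat, rose from 92.3, 91.2 and 92.1 CPM to 628, 632 and 627 CPM (log2 fold change 2.77, SE 0.0231, adjusted p = 1.87e-37). The peroxisomal transporter Abcd3 fell from 42.8 ± 1.71 to 3.17 ± 0.297 CPM. Phyh, an enzyme of branched fatty acid breakdown, fell from 10.8 ± 0.144 to 0.613 ± 0.185 CPM.

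**Figure D2:**
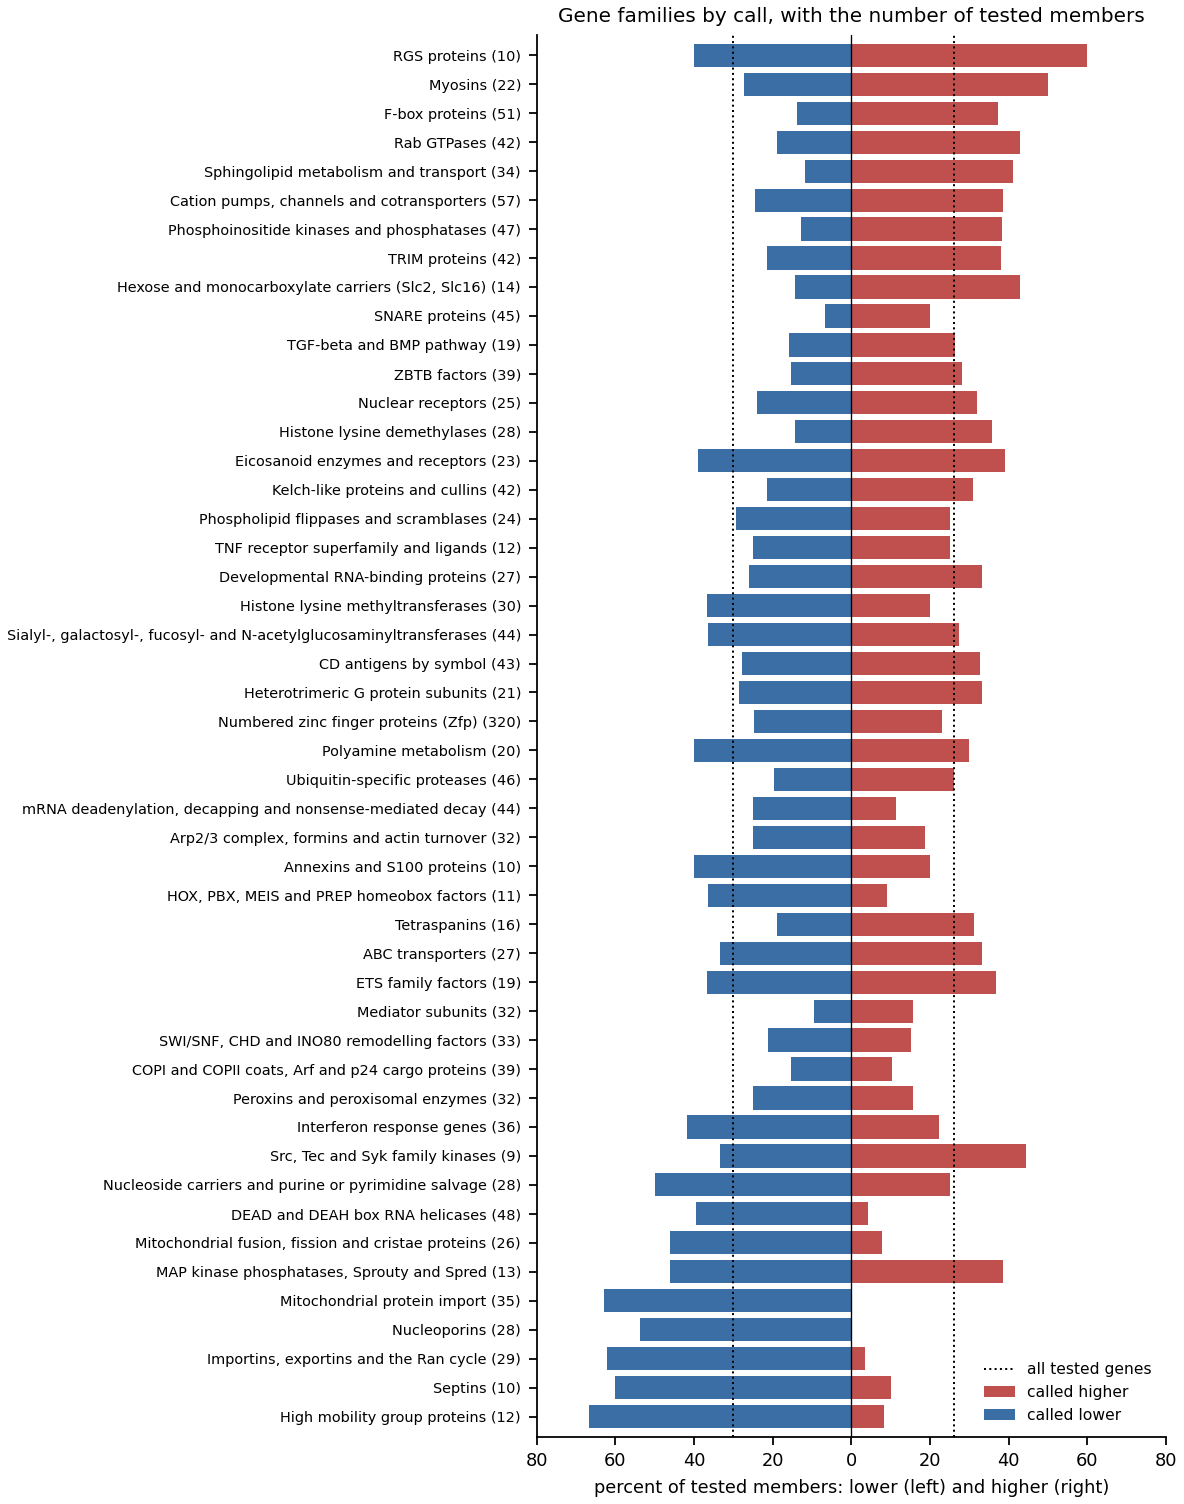
For 48 of the 49 gene families, the bars give the percent of tested members called lower (left, blue) and higher (right, red) with estradiol, ordered by the median log2 fold change, with the number of tested members in brackets and dotted lines at the shares of all tested genes (30.2% lower, 26.2% higher). Nucleoporins and mitochondrial import have no bar on the right, and F-box proteins, Rab GTPases and sphingolipid genes lie to the right of the dotted line on the side of rises.

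High mobility group proteins, which bend DNA or loosen nucleosomes, had a median of -2.28, the lowest of the 49 families (in a fit to the 6 WT libraries alone septins were lower, -3.01 against -2.22), with 8 of 12 tested members lower and 1 higher. Hmga1, which binds AT-rich DNA, stood at 236, 213 and 226 CPM untreated and 2.61, 2.83 and 3.29 CPM with estradiol (log2 fold change -6.29, SE 0.104, adjusted p = 2.55e-14). Hmgb1 went from 1233, 1195 and 1257 CPM to 263, 266 and 265 CPM. Hmgn2, a nucleosome-binding protein, went from 400.1, 386 and 395 CPM to 36.4, 41.5 and 37.4 CPM. In none of these did the groups overlap, as a call requires. Hmgb3 fell 11.2-fold. The exception, Hmg20b, a subunit of the complex of the demethylase LSD1 and CoREST, rose from 14.9 ± 2.13 to 102 ± 2.05 CPM. Together the family fell from 3998 ± 45.4 to 689 ± 11.01 TPM in sum.

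Enzymes that write and erase histone methylation exchanged members. Of 28 tested lysine demethylases, 10 were higher and 4 lower (14.3%). Kdm3a, which removes methyl groups from lysine 9 of histone H3, stood at 51.1, 50.7 and 54.7 CPM untreated and 352, 367 and 367 CPM with estradiol (log2 fold change 2.79, SE 0.0282, adjusted p = 1.84e-35). Kdm7a, an eraser of repressive marks on the same histone, rose from 42.8, 43.3 and 42.4 CPM to 243, 245 and 245 CPM. Kdm5b, an eraser of lysine 4 methylation, rose from 63.5, 65.6 and 64.1 CPM to 358, 362 and 357 CPM. Of the enzymes that add methyl groups to lysine 9, Suv39h1 stood at 106, 104 and 105 CPM untreated and 17.3, 17.03 and 17.9 CPM with estradiol (log2 fold change -2.596, SE 0.0367, adjusted p = 8.36e-32). Its paralog Suv39h2 fell 19.2-fold. The Kmt5 genes, writers of H4 lysine 20 methylation, divided. Kmt5a, which adds the first methyl group, fell from 158 ± 2.15 to 31.9 ± 1.13 CPM. Kmt5c, which adds further ones, rose from 62.3, 62.03 and 57.9 CPM to 283, 283 and 288 CPM (log2 fold change 2.23, SE 0.0309, adjusted p = 2.23e-30), and Kmt5b from 32.9 ± 0.676 to 152 ± 1.03 CPM. Kmt2e rose 5.21-fold and Smyd5 fell 14.9-fold. Over the 30 methyltransferases, 6 were higher and 11 lower. Among 33 SWI/SNF, CHD and INO80 factors, 5 were higher and 7 lower (2 and 12 with library totals only). Arid1a, the subunit that defines one form of SWI/SNF, rose from 245 ± 1.73 to 579.8 ± 6.81 CPM, and the remodeller Chd2 from 91.9 ± 2.3 to 415 ± 2.42 CPM. The SWI/SNF core subunit Smarcb1 fell from 73.03 ± 1.26 to 16.3 ± 0.841 CPM. Smarcd1 and Actl6a fell 3.84-fold and 3.95-fold. Riox1 and Riox2, oxygenases with mainly nucleolar roles, are counted among the demethylases and were lower.

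RNA helicases of the DEAD and DEAH boxes, which unwind RNA in ribosome assembly, splicing and export, were lower in 19 of 48 tested members and higher in 2 (median -0.74). Ddx18, a helicase of ribosome assembly, went from 291, 289 and 296 CPM to 42.5, 43.8 and 44.4 CPM (log2 fold change -2.75, SE 0.0274, adjusted p = 1.39e-35). Ddx39, of mRNA export, fell from 342, 337 and 353 CPM to 49.99, 50.4 and 47.2 CPM. The risers were Ddx17 (225 ± 4.898 to 604 ± 4.34 CPM) and Dhx8 (79.8 ± 0.726 to 183 ± 4.29 CPM). RNA-binding proteins known from development divided, 9 of 27 higher (6 by limma on TPM) and 7 lower. Cpeb4, which lengthens poly(A) tails in the cytoplasm, stood at 17.1, 17.2 and 16.04 CPM untreated and 451, 463 and 457 CPM with estradiol (log2 fold change 4.77, SE 0.0348, adjusted p = 8.32e-39). Igf2bp3, an RNA-binding protein of fetal tissues, stood at 78.1, 79.1 and 78.1 CPM untreated and 2.55, 2.79 and 2.93 CPM with estradiol (log2 fold change -4.84, SE 0.0728, adjusted p = 3.97e-31). Lin28b, which blocks the processing of let-7 microRNAs, fell from 41, 40.1 and 42.8 CPM to 2.68, 2.59 and 2.43 CPM (log2 fold change -4.003, SE 0.0844, adjusted p = 2.34e-27). Thus the Cpeb4 groups lie far apart in one direction and those of Igf2bp3 and Lin28b in the other. Cpeb2 and Cpeb3 also rose, 6.17-fold and 10.7-fold. Rbfox2, a splicing regulator, had 6 counts in all with estradiol and 565 without, a ratio of 74.8-fold (95% counting interval 34.2 to 205). In mRNA decay, Zfp36 (tristetraprolin), which recruits deadenylases to AU-rich messages, rose from 4.25, 3.72 and 4.26 CPM to 136, 132 and 138 CPM (log2 fold change 5.04, SE 0.0556, adjusted p = 2.04e-32). The Lsm2, Lsm3 and Lsm5 subunits of the ring that serves both splicing and decapping fell 10.98-fold, 5.16-fold and 6.05-fold. Of the 44 decay genes tested, 5 were higher (3 with library totals only) and 11 lower.

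Of the lists of ubiquitin ligase proteins, that of F-box proteins had the clearest excess of rises over falls. Of 51 tested F-box proteins, which choose the targets of SCF ligases, 19 were higher (37.3%) and 7 lower (11 with library totals only), with a median of 0.80 (0.46 with library totals only, 0.36 by limma on TPM). Fbxo34 stood at 23.4, 23.5 and 23.8 CPM untreated and 386, 375 and 379 CPM with estradiol (log2 fold change 4.01, SE 0.0281, adjusted p = 3.66e-39). Fbxw7, which marks MYC and cyclin E for destruction, stood at 14.6, 14.4 and 15.4 CPM untreated and 209, 216 and 214 CPM with estradiol (log2 fold change 3.84, SE 0.0343, adjusted p = 9.65e-37). Both were higher in all estradiol libraries, as a call requires. On the other side, Fbxo5 (EMI1), an inhibitor of the anaphase-promoting complex, fell from 72.5, 70.2 and 72.03 CPM to 2.19, 2.49 and 1.44 CPM (log2 fold change -5.099, SE 0.0842, adjusted p = 4.25e-30). The F-box sum went from 1041 ± 6.34 to 2139 ± 6.296 TPM. Among 42 TRIM ligases, 16 were higher (7 by limma on TPM, 9 of 25 under a stricter filter) and 9 lower (5 of 25 under that filter). Trim56 rose from 91.1, 90.3 and 88.7 CPM to 815, 806 and 806 CPM (log2 fold change 3.17, SE 0.0245, adjusted p = 3.03e-38), and Trim8 from 27.8 ± 0.844 to 172 ± 1.84 CPM. Trim28 (KAP1), the corepressor of KRAB zinc fingers, fell from 458, 448 and 454 CPM to 107, 103 and 107 CPM (log2 fold change -2.11, SE 0.0274, adjusted p = 9.58e-33). In the kelch and cullin list, 13 of 42 were higher (7 by limma on TPM) and 9 lower (at least 8 under every alternative). Klhl24 rose from 25.8, 25.7 and 27.5 CPM to 712, 731 and 729 CPM. Klhl21 rose 9.11-fold and Klhl26 8.82-fold. Klhl23 fell from 71.5, 70.4 and 74.2 CPM to 1.34, 1.53 and 1.26 CPM. The scaffold Cul4a rose from 216 ± 3.77 to 452 ± 5.55 CPM. Ubiquitin-specific proteases also divided, 12 of 46 higher (6 with library totals only, 5 by limma on TPM) and 9 lower (6 of 41 under a stricter filter). Usp32 rose from 38.2 ± 2.11 to 261 ± 4.197 CPM, and Usp3 and Usp47 rose 4.92-fold and 3.26-fold. Usp1, which acts on FANCD2 and PCNA, fell from 390.4 ± 9.91 to 49.9 ± 1.02 CPM. The nucleolar Usp36 fell 6.36-fold.

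**Figure D3:**
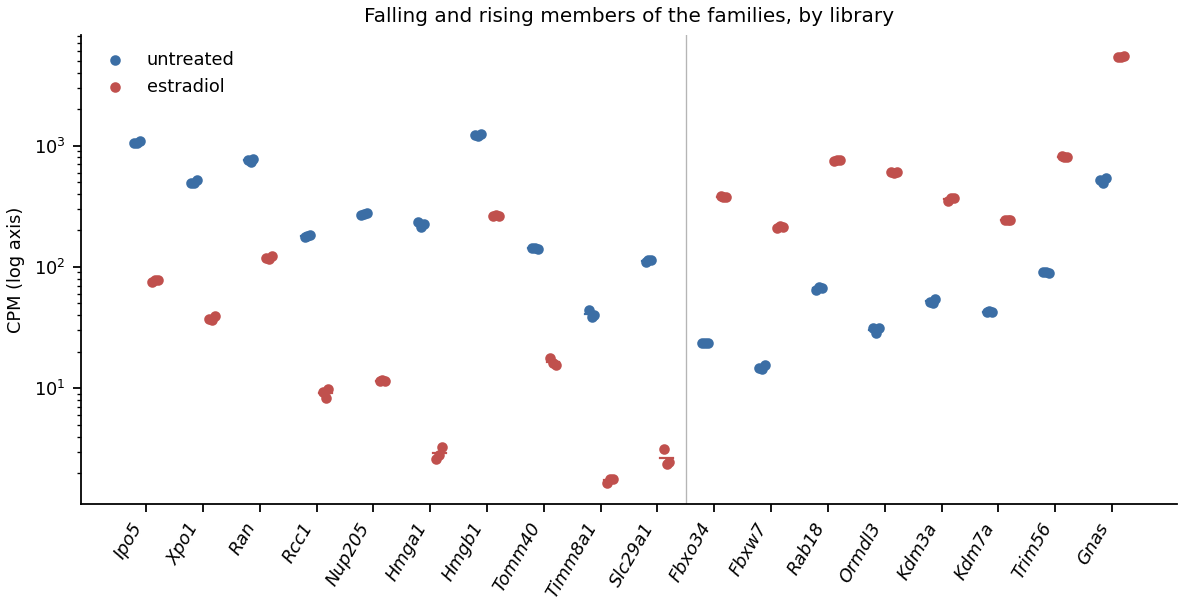
Each point is the CPM of 1 library on a log axis, blue for untreated and red for estradiol, with short lines at the group means. Left of the grey line stand falling genes of nuclear transport, high mobility group proteins, mitochondrial import and nucleoside transport. Right of it stand rising F-box, Rab, sphingolipid, demethylase, TRIM and G protein genes. All were called, so their groups do not overlap by definition.

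Among cation pumps and channels, several of calcium changed. Atp2b4, a plasma membrane calcium pump of red cells (chr1:133699457-133801041), stood at 98.2, 99.8 and 98.8 CPM untreated and 5093, 5119 and 5137 CPM with estradiol (log2 fold change 5.69, SE 0.0252, adjusted p = 1.82e-43). Atp2a3, a calcium pump of the endoplasmic reticulum, stood at 173, 174 and 173 CPM untreated and 19.4, 18.4 and 20.4 CPM with estradiol (log2 fold change -3.16, SE 0.037, adjusted p = 6.49e-34). Itpr1, an IP3 receptor that releases calcium from that store, fell from 63.7, 61.8 and 64.1 CPM to 1.57, 1.94 and 1.67 CPM. Its paralog Itpr3 fell from 44.9, 41.1 and 41.7 CPM to 5.61, 6.37 and 6.17 CPM. Atp2a2, another calcium pump of that store and the list member with the highest TPM untreated, stood at 273, 268 and 279.8 CPM untreated and 163, 163 and 169 CPM with estradiol, under 2-fold. So Atp2b4 was 51.7-fold higher in estradiol libraries, and Atp2a3, Itpr1 and Itpr3 were 8.96-fold, 36.5-fold and 7.06-fold lower. Atp1b2, a beta subunit of the sodium pump, rose from 3.56 ± 0.539 to 249.6 ± 2.41 CPM. Of 57 tested cation pumps, channels and cotransporters, 22 were higher (12 by limma on TPM, 14 of 30 under a stricter filter) and 14 lower (6 of 30 under that filter).

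Of 14 hexose and monocarboxylate carriers, 6 were higher (3 by limma on TPM) and 2 lower. Slc16a1 (MCT1), the lactate and pyruvate carrier, fell from 206, 199.7 and 208 CPM to 23.4, 23.5 and 25.6 CPM (log2 fold change -3.09, SE 0.0421, adjusted p = 1.53e-30). Slc16a10, a carrier of aromatic amino acids, rose from 43.5, 42.1 and 41.7 CPM to 277, 273 and 275 CPM (log2 fold change 2.695, SE 0.0256, adjusted p = 4.14e-36). Slc2a3 (GLUT3), a glucose carrier, rose from 471 ± 6.94 to 1109.5 ± 3.33 CPM. Abcb10, an ABC transporter of the mitochondrial inner membrane (chr8:123952459-123983122), stood at 37.2, 38.2 and 34.3 CPM untreated and 1724, 1719.7 and 1703 CPM with estradiol (log2 fold change 5.56, SE 0.0323, adjusted p = 5.46e-41). Abcc5, an exporter of cyclic nucleotides, rose from 34.6 ± 1.38 to 429 ± 5.38 CPM, and Abca2 fell from 37.5 ± 0.682 to 4.68 ± 0.375 CPM. Over the 27 tested genes of the ABC list, which by symbol includes Abce1, not a transporter, 9 were higher and 9 lower, so that the list as such did not lean. Slc29a1 (ENT1), the main equilibrative nucleoside carrier, fell from 109, 114 and 113 CPM to 3.17, 2.38 and 2.48 CPM (log2 fold change -5.37, SE 0.0703, adjusted p = 1.44e-32). Its paralog Slc29a2 had 19 counts with estradiol against 973, a ratio of 40.7-fold (95% counting interval 25.9 to 67.9). Slc28a3, a concentrative nucleoside carrier, rose from 0.3698 ± 0.0913 to 11.9 ± 0.5397 CPM. Nucleotide enzymes went both ways. The pyrimidine nucleotidase Nt5c3 rose from 164, 156 and 171 CPM to 982, 999 and 969 CPM. The AMP deaminase Ampd3 rose from 7.55, 7.8 and 7.32 CPM to 60.3, 60.1 and 60.8 CPM. Dctd, which deaminates dCMP, fell from 37.8, 38.8 and 39.4 CPM to 0.457, 0.443 and 0.45 CPM (log2 fold change -6.41, SE 0.107, adjusted p = 5.82e-30). In that list of 28, 7 were higher and 14 lower. Of the 20 genes of the polyamine pathway, 6 were higher (3 of 17 under a stricter filter) and 8 lower. The spermidine synthase Srm fell from 149.5, 146 and 151 CPM to 8.39, 8.07 and 8.51 CPM. The spermine synthase Sms fell from 164, 161 and 166 CPM to 8.55, 9.37 and 10.1 CPM. Sat1, which acetylates polyamines for breakdown and export, rose from 16.9, 17.2 and 17.6 CPM to 90.3, 95.3 and 93.6 CPM. The antizymes Oaz1 and Oaz2 rose 2.83-fold and 2.76-fold. Eif5a, the translation factor that carries a polyamine-derived hypusine, fell from 1166 ± 15.6 to 214 ± 5.17 CPM.

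Of the lists of lipid handling, those of sphingolipids and phosphoinositides had more rises than falls. Of 34 sphingolipid genes tested, 14 were higher (9 with library totals only, 8 by limma on TPM) and 4 lower (2 of 28 under a stricter filter), with a median of 0.72 (0.37 with library totals only, 0.19 by limma on TPM). Ormdl3, which restrains the first enzyme of sphingolipid synthesis, stood at 31.4, 28.4 and 31.1 CPM untreated and 604, 596 and 605 CPM with estradiol (log2 fold change 4.303, SE 0.0322, adjusted p = 1.55e-38). Degs1, which forms ceramide from its saturated precursor, stood at 43.4, 41.1 and 45.4 CPM untreated and 606, 604 and 613 CPM with estradiol (log2 fold change 3.81, SE 0.0293, adjusted p = 2.75e-38). Sgms1, a sphingomyelin synthase, rose from 8.799 ± 0.829 to 63.8 ± 1.86 CPM. Sptssa, a small subunit of that first enzyme, fell from 99.2, 94.9 and 102 CPM to 9.104, 9.91 and 10.7 CPM, and the ceramide synthase Cers2 from 302 ± 2.29 to 114 ± 1.302 CPM. The phosphoinositide list had 18 of 47 higher and 6 lower. Pip5k1b, which makes PI(4,5)P2, rose from 15.4, 16.5 and 16.9 CPM to 169, 169.8 and 173 CPM (log2 fold change 3.396, SE 0.0332, adjusted p = 7.92e-36). The phosphatase Inpp5k rose from 18.3, 16.7 and 15.7 CPM to 163, 165 and 167 CPM. The PI3-kinase catalytic subunit Pik3cg fell from 31.1, 31.3 and 32.3 CPM to 1.96, 1.63 and 1.58 CPM (log2 fold change -4.18, SE 0.09, adjusted p = 4.01e-27). Pip4k2b fell from 60.96 ± 0.593 to 8.22 ± 0.787 CPM. The flippases and scramblases did not lean, with 6 of 24 higher and 7 lower (2 and 3 by limma on TPM, 4 and 2 of 12 under a stricter filter). Atp8a1, a flippase of aminophospholipids, rose from 43.98, 43.9 and 43.9 CPM to 559, 558 and 558 CPM (log2 fold change 3.67, SE 0.0261, adjusted p = 4.88e-39).

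Sugar transferases that build cell surface glycans changed in both directions, 12 of 44 higher and 16 lower (7 and 10 of 31 under a stricter filter, 7 higher by limma on TPM). B4galt1, a galactosyltransferase, rose from 59.4, 61.5 and 60.2 CPM to 1356, 1364 and 1361 CPM (log2 fold change 4.496, SE 0.0265, adjusted p = 7.88e-41). The sialyltransferase St3gal2 rose from 63.02 ± 2.098 to 526 ± 5.96 CPM. Fut8, which adds the core fucose of N-glycans, fell from 181, 181 and 185 CPM to 19.6, 19.04 and 17.6 CPM (log2 fold change -3.27, SE 0.0412, adjusted p = 4.11e-33). St6galnac4 fell 26.7-fold and St8sia4, which makes polysialic acid, 17.1-fold. Among the 43 CD antigens tested, 14 were higher (5 by limma on TPM) and 12 lower (8 of 22 under a stricter filter). Cd44, the hyaluronan receptor, fell from 121, 120.3 and 117 CPM to 6.04, 6.198 and 4.995 CPM (log2 fold change -4.36, SE 0.0507, adjusted p = 5.56e-34). Cd59b, an inhibitor of complement, fell from 148, 146 and 153 CPM to 2.84, 3.47 and 3.38 CPM. Cd47, the signal against phagocytosis, rose from 229.5 ± 1.93 to 609.8 ± 4.51 CPM, Cd81 from 43.3 ± 0.507 to 180.5 ± 3.44 CPM and the tetraspanin Tspan33 from 29.96, 31.7 and 32.3 CPM to 258, 259 and 256 CPM.

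Vesicle traffic shifted toward some Rab GTPases. Of 42 tested Rabs, which label membranes of the endosomes and the secretory path, 18 were higher (42.9%) and 8 lower (3 of 33 under a stricter filter), with a median of 0.76 (0.42 with library totals only, 0.37 by limma on TPM). Rab18 stood at 65.1, 68.1 and 67.05 CPM untreated and 749, 754 and 759 CPM with estradiol (log2 fold change 3.499, SE 0.0281, adjusted p = 7.57e-38). Rab5b, of early endosomes, rose from 24.3, 24.5 and 25.8 CPM to 174, 174 and 177 CPM. Rab43, of the Golgi, rose from 34.1, 36.2 and 34.2 CPM to 246, 238 and 244 CPM. Rab27a, of secretory granules, fell from 12.8, 11.5 and 12.7 CPM to 0.685, 0.545 and 0.36 CPM (log2 fold change -4.49, SE 0.167, adjusted p = 5.65e-21). The Rab sum was 1619.5 to 1637 TPM untreated and 3263 to 3306 TPM with estradiol. SNARE proteins, which fuse vesicles, had 9 of 45 higher and 3 lower (6 lower with library totals only), so that 33 did not pass. Stx5a of the Golgi rose from 30.8 ± 1.75 to 208 ± 2.49 CPM. Snap29 and Bet1l rose 8.01-fold and 6.41-fold. Coat proteins and their cargo receptors had 29 of 39 members not called, with 4 higher and 6 lower (2 and 13 with library totals only). Lman1, a cargo receptor of the early secretory path, fell from 149 ± 4.34 to 51.03 ± 1.09 CPM.

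Signalling families exchanged members rather than moving together. Among the regulators of G protein signalling, all 10 tested members were called, 6 higher and 4 lower. With the first estradiol library left out, or with library totals only, 3 were higher (2 by limma on TPM), and the median of 1.02 became -0.45 in a fit to the 6 WT libraries alone. Rgs10 stood at 19.2, 20.2 and 21.1 CPM untreated and 141, 142 and 141 CPM with estradiol (log2 fold change 2.81, SE 0.0344, adjusted p = 2.11e-33). Rgs18 stood at 31.7, 29.3 and 32.8 CPM untreated and 0.261, 0.1703 and 0.27 CPM with estradiol, with 3263 counts against 19, a ratio of 136-fold (95% counting interval 87.3 to 227). Rgs14, with 1851 counts against 14, was lower by 105-fold (95% counting interval 62.5 to 193), and Rgs19 fell from 43.98, 43.3 and 43.5 CPM to 1.66, 1.19 and 1.31 CPM (log2 fold change -4.96, SE 0.0977, adjusted p = 3.99e-28). Rgs10 thus rose while those paralogs fell to a small remainder. Of 21 tested G protein subunits, 7 were higher (4 by limma on TPM) and 6 lower (4 of 15 under a stricter filter). Gnas, the stimulatory G protein alpha subunit, rose from 522, 488 and 536 CPM to 5405, 5351 and 5445 CPM (log2 fold change 3.39, SE 0.0319, adjusted p = 1.12e-30). Gna13 rose from 107 ± 2.03 to 315 ± 8.21 CPM, and Gng10 fell from 91.1 ± 1.52 to 5.17 ± 0.184 CPM.

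The list of Dusp, Sprouty and Spred genes, many of them feedback inhibitors of MAP kinase and Ras signalling, moved apart in the same way, 5 of 13 higher and 6 lower. By symbol it includes Dusp11, an RNA phosphatase, which held 44.5% of the summed TPM untreated and 78.7% with estradiol. Dusp16 rose from 17.3, 16.8 and 18.6 CPM to 182, 187 and 187 CPM (log2 fold change 3.395, SE 0.0335, adjusted p = 9.82e-36). Dusp1, another phosphatase of MAP kinases, rose 9.17-fold. The Sprouty gene Spry1 rose from 2.87, 3.39 and 2.75 CPM to 24.02, 25.2 and 23.8 CPM. Dusp7, an ERK phosphatase, fell from 17.6, 16.05 and 16.4 CPM to 1.01, 0.783 and 0.855 CPM (log2 fold change -4.23, SE 0.12, adjusted p = 5.26e-24). Spry4 had 701 counts untreated against 6, a ratio of 92.8-fold (95% counting interval 42.4 to 254). Of the 9 Src, Tec and Syk kinases, 4 were higher (1 with library totals only, none by limma on TPM) and 3 lower. Fyn fell from 39.3, 38.9 and 39.8 CPM to 5.45, 5.79 and 5.76 CPM. Btk fell from 102, 98.1 and 103 CPM to 26.3, 27.6 and 29.2 CPM, and Lck had 14 counts left of 834, a ratio of 47.4-fold (95% counting interval 28.1 to 87). Lyn, which acts below the erythropoietin receptor, stood at 49.6, 44.3 and 50.6 CPM untreated and 98.6, 100.2 and 102 CPM with estradiol. Tec stood at 27.9, 26.6 and 27.7 CPM untreated and 59.03, 58 and 56.6 CPM with estradiol. Both were higher by about the 2-fold limit of a call. Interferon response genes had 8 of 36 higher and 15 lower (5 and 5 of 21 under a stricter filter, where the median of -0.51 became 0.15). B2m, the light chain of MHC class I, rose from 79.4, 74.2 and 80.6 CPM to 414, 419.7 and 420.4 CPM (log2 fold change 2.42, SE 0.0287, adjusted p = 9.71e-34), and Irf2 from 15.6 ± 1.096 to 67.9 ± 1.93 CPM. The immunoproteasome subunit Psmb10 fell from 32.8, 30.95 and 32.7 CPM to 2.87, 2.69 and 3.29 CPM. The RNA sensor Ifih1 fell from 16.03 ± 1.52 to 2.002 ± 0.175 CPM, and Ifitm2 from 61.4 ± 2.08 to 7.14 ± 0.336 CPM. Bmpr2, a receptor for bone morphogenetic proteins, rose from 32.9, 32.8 and 32.9 CPM to 163, 162 and 158 CPM. The Smad partner Tgif1 fell from 13.6, 13.4 and 14.4 CPM to 1.79, 1.53 and 1.76 CPM. Alox5ap, needed to make leukotrienes, fell from 20.3, 22.7 and 22.6 CPM to 0.718, 0.749 and 0.7201 CPM (log2 fold change -4.897, SE 0.124, adjusted p = 2.92e-25).

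**Figure D4:**
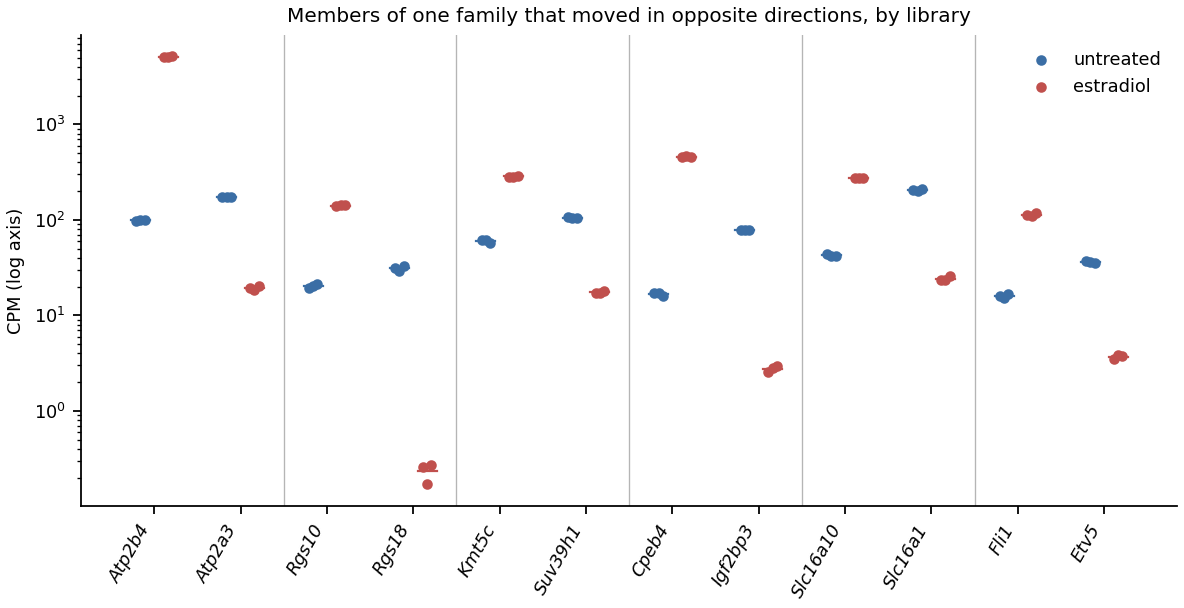
CPM of each library on a log axis, blue for untreated and red for estradiol, for 6 pairs of genes from one family each, separated by grey lines, with short lines at the group means. In each pair the left gene rises and the right gene falls, from Atp2b4 against Atp2a3 to Fli1 against Etv5. All were called, so their groups do not overlap by definition.

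Transcription factor families split too. Of 19 tested ETS factors, 7 were higher (3 by limma on TPM) and 7 lower. Fli1, a factor of early blood and megakaryocyte genes, stood at 15.97, 15.1 and 16.9 CPM untreated and 112, 110.4 and 118 CPM with estradiol (log2 fold change 2.81, SE 0.0403, adjusted p = 1.17e-31). Elf1 rose from 74.8, 74.1 and 74.6 CPM to 353, 359.9 and 362 CPM (log2 fold change 2.26, SE 0.0263, adjusted p = 5.48e-34). Etv5 stood at 37.6, 36.1 and 35.7 CPM untreated and 3.52, 3.81 and 3.74 CPM with estradiol (log2 fold change -3.305, SE 0.0702, adjusted p = 2.82e-27). Etv4, of the same subfamily, fell from 7.45, 8.49 and 7.495 CPM to 0.424, 0.238 and 0.225 CPM. Elf4 fell from 84.9, 83.1 and 82.8 CPM to 13.7, 13.1 and 14.2 CPM. Of 11 HOX, PBX, MEIS and PREP factors, 1 was higher and 4 lower, and 3 of these 4 lie in the Hoxc cluster. Hoxc4 went from 19.99, 19.5 and 20.3 CPM to 1.73, 1.498 and 1.62 CPM. Hoxc5 went from 21.8, 23.2 and 22.8 CPM to 0.489, 0.409 and 0.765 CPM (log2 fold change -5.39, SE 0.134, adjusted p = 1.81e-25). Hoxc8 had 19 counts left of 604, a ratio of 25.3-fold (95% counting interval 16 to 42.3). Pknox1, a homeobox partner of HOX proteins, rose from 38.8 ± 1.16 to 109 ± 0.545 CPM. Nuclear receptors had 8 of 25 higher (3 by limma on TPM, 5 of 13 under a stricter filter) and 6 lower (2 by limma on TPM, 1 of 13 under that filter). Nr1d2 (REV-ERB beta), a heme-binding repressor, rose from 23.9, 24.7 and 24.7 CPM to 123.4, 126 and 131 CPM (log2 fold change 2.38, SE 0.0349, adjusted p = 2.09e-31). The sterol sensor Nr1h2 (LXR beta) rose from 24.9 ± 1.72 to 96.2 ± 2.41 CPM, and the fatty acid sensor Ppard from 14.3 ± 0.196 to 54.3 ± 0.576 CPM. Esr1 was at 135 ± 3.16 to 196 ± 7.15 CPM, and reads of the fusion's receptor part cannot be told apart from the endogenous gene. The 320 numbered zinc finger genes tested had 74 higher and 79 lower (39 higher by limma on TPM, 47 of 243 lower under a stricter filter). Zfp972 rose from 7.72, 8.004 and 8.24 CPM to 199, 195 and 185 CPM, and Zfp827 fell from 14.99, 15.3 and 15.4 CPM to 0.816, 0.443 and 0.675 CPM.

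The Mediator complex, which links factors to RNA polymerase II, was mostly under the limits of a call, with 24 of 32 subunits not called, 5 higher and 3 lower (3 and 8 with library totals only). The largest rises lay in its detachable kinase module. Med13l went from 43.1, 41.9 and 41.3 CPM to 348, 359 and 352 CPM (log2 fold change 3.07, SE 0.0259, adjusted p = 2.4e-37). Med13 went from 90.7, 91.7 and 93.02 CPM to 492, 503.7 and 499 CPM (log2 fold change 2.44, SE 0.0267, adjusted p = 1.22e-34). The kinase Cdk19 went from 29.4, 29.4 and 28.2 CPM to 133, 134 and 137 CPM. Med12, taken up after the others were seen, stood at 111, 109 and 110.1 CPM untreated and 231, 227 and 235 CPM with estradiol. The module's remaining tested members were under 2-fold, the kinase Cdk8 at 117 ± 2.905 to 138 ± 2.27 CPM and its cyclin Ccnc at 42.1 ± 0.457 to 36.6 ± 1.02 CPM. Med14, the backbone of the complex, fell from 88.2 ± 2.29 to 26.9 ± 0.783 CPM.

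In the cytoskeleton, septins and myosins lost individual members almost entirely. Of 10 tested septins, GTPases that form filaments at the division furrow, 6 were lower and 1 was higher. The median was -2.05 (-3.01 in a fit to the 6 WT libraries and -3.46 under a stricter filter, with 9 and 8 members tested). Sept6 stood at 41.3, 40.1 and 43.1 CPM untreated and 0.946, 0.919 and 0.9901 CPM with estradiol (log2 fold change -5.45, SE 0.0968, adjusted p = 2.8e-29). Sept1 fell from 45.7, 47.5 and 45.97 CPM to 1.11, 1.29 and 1.17 CPM. Sept9 fell from 245, 242 and 240.1 CPM to 11.5, 11.9 and 11.2 CPM (log2 fold change -4.39, SE 0.0384, adjusted p = 5.64e-37). Sept2, the member with the highest TPM, moved from 483 ± 11.6 to 389.9 ± 6.18 CPM and was not called. Myo1g, a membrane-linked myosin of blood cells, stood at 63.6, 65.6 and 64.3 CPM untreated and 0.881, 0.681 and 0.405 CPM with estradiol (log2 fold change -6.56, SE 0.105, adjusted p = 2.04e-30). Myo5a, a carrier of vesicles, fell from 42.2, 42.1 and 41.7 CPM to 1.89, 1.94 and 2.12 CPM. Myosin light chains Myl6 and Myl12a rose from 153 ± 0.857 to 316 ± 5.01 CPM and from 110.2 ± 3.13 to 249 ± 3.63 CPM. Across 22 myosins, 11 were higher (6 with library totals only, 1 by limma on TPM) and 6 lower. The list of Arp2/3, formin and actin turnover genes had 6 of 32 higher and 8 lower, and its sum went from 6142 ± 48.3 to 4967 ± 9.07 TPM. Daam1, a formin, which extends straight actin filaments, rose from 34.2, 32.8 and 32.4 CPM to 518, 517 and 519.7 CPM (log2 fold change 3.97, SE 0.027, adjusted p = 1.96e-39). Fhod1, another formin, rose from 9.67, 9.31 and 9.65 CPM to 169, 165 and 167 CPM (log2 fold change 4.12, SE 0.0417, adjusted p = 1.81e-35). Of 10 tested genes in the list of annexins and S100 proteins, 2 were higher (1 of 7 under a stricter filter) and 4 lower (2 of 7). By symbol this list includes S100pbp, which is neither. Anxa2, a calcium-dependent membrane binder, fell from 24.6, 25.2 and 26.4 CPM to 0.294, 0.204 and 0.36 CPM.

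The largest rises outside the well-known erythroid lists joined genes of unlike kinds. Ctsf, the lysosomal protease cathepsin F, had no count in any untreated library and 1050 counts with estradiol. Against an assumed 3 counts over the untreated group, it was 440.4-fold higher. The 95% counting interval from the counts themselves began at 358-fold and had no upper end. Slc52a3, a riboflavin carrier, had 2 counts against 1307, a ratio of 822-fold (95% counting interval 227 to 6800.0). Matn1, a matrilin of extracellular matrix, stood at 0.5997, 0.939 and 0.642 CPM untreated and 444, 438 and 449 CPM with estradiol (log2 fold change 9.31, SE 0.0629, adjusted p = 1.88e-34). Tmcc2, a transmembrane protein of the endoplasmic reticulum, rose from 6.77, 6.53 and 6.597 CPM to 1969.6, 1947 and 1972 CPM (log2 fold change 8.21, SE 0.0344, adjusted p = 1.47e-43). Btn1a1, a butyrophilin, rose from 0.7496, 1.103 and 0.975 CPM to 308, 305 and 317 CPM (log2 fold change 8.39, SE 0.0532, adjusted p = 3.74e-40). Tbx6, a T-box factor, had 11 counts against 3638, a ratio of 416-fold (95% counting interval 232 to 834), and the hormone receptor Amhr2 had 5 against 1202, a ratio of 302-fold (95% counting interval 129 to 933). Gm2016 (0.973 ± 0.145 to 456 ± 4.36 CPM) has near copies among neighbouring genes, so its share of their reads depends on the counting model. Among the largest falls, Mthfd1l, the mitochondrial formate-producing enzyme of folate metabolism, stood at 264, 256 and 263 CPM untreated and 3.17, 2.59 and 2.57 CPM with estradiol (log2 fold change -6.54, SE 0.0561, adjusted p = 3.6e-37). Lyl1, a relative of Tal1, stood at 148, 142 and 146 CPM untreated and 1.17, 1.601 and 1.31 CPM with estradiol (log2 fold change -6.74, SE 0.0655, adjusted p = 7.07e-36). Cpa3, the mast cell carboxypeptidase that blood progenitors also express, stood at 137, 133 and 149 CPM untreated and 1.403, 1.23 and 1.22 CPM with estradiol (log2 fold change -6.75, SE 0.0879, adjusted p = 9.26e-26). Shank3, a scaffold best known from synapses, fell from 62.6, 58.8 and 56.99 CPM to 0.522, 0.647 and 0.6301 CPM, and Armcx4 from 96.6, 102 and 97.7 CPM to 1.04, 0.954 and 1.17 CPM. The mitotic kinases Pbk and Ttk fell 105-fold and 86.4-fold, and Itm2a had 5 counts left of 1118, a ratio of 178-fold (95% counting interval 75.9 to 548).

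By level alone, 42 genes went from under 1 CPM in each untreated library to at least 10 CPM in each estradiol library, and 88 went the opposite way. With limits of 0.5 and 20 CPM the counts were 13 and 10. Highest among those switched on that have a symbol, beside embryonic globins, were Matn1, Tmem184a (0.302 ± 0.1497 to 300.2 ± 3.42 CPM) and Gm28196 (0.853 ± 0.103 to 102 ± 4.38 CPM). Exons of Tmem184a overlap those of Mafk, so its counts may include reads of Mafk. Highest among those switched off was Erv3, a gene of retroviral origin, at 88.5 ± 1.74 to 0.367 ± 0.0826 CPM, named after its values were seen. Next came Melk, a kinase of dividing cells (65.8 ± 2.5 to 0.461 ± 0.134 CPM), Recql4, a DNA helicase (64.6 ± 1.195 to 0.869 ± 0.169 CPM), Myo1g, Pbk and Shank3.

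Long non-coding RNAs had more rises than falls: 299 of 708 tested were higher (42.2%) and 98 lower (13.8%), against 25.2% and 31.3% of 11251 protein-coding genes. Many of them pass the filter on low counts through the estradiol group alone and had to differ, so these counts are a description. Among genes with a mean of at least 5 CPM over the 6 libraries, which can also be reached through one group, 69 of 150 long non-coding RNAs were higher (46.0%) and 30 lower, against 22.8% and 31.8% of 8537 protein-coding genes. With library totals only, the shares of non-coding RNAs were 38.7% higher and 26.0% lower, against 17.5% and 38.9% of coding genes. The most abundant riser was Gm26809, a lincRNA (chr6:18844220-18847360), at 52.9, 59.4 and 53.8 CPM untreated and 16492, 16673 and 16884 CPM with estradiol (log2 fold change 8.24, SE 0.039, adjusted p = 5.89e-33). Gm12840, another lincRNA (chr4:117700188-117700923), stood at 7.55, 9.11 and 6.06 CPM untreated and 2519, 2420.2 and 2545 CPM with estradiol (log2 fold change 8.396, SE 0.0907, adjusted p = 5.1e-14). Taken up after their values were seen, the nuclear RNAs Malat1 and Neat1 were both higher. Malat1 stood at 413, 427 and 402 CPM untreated and 5642, 5968 and 5134 CPM with estradiol, and Neat1 at 82.01, 82.6 and 77.2 CPM untreated and 1040.5, 1036 and 996 CPM with estradiol. Gas5, a host of small nucleolar RNAs, went the opposite way, from 395 ± 14.05 to 185 ± 4.17 CPM.

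Several genes called here carry microRNAs in their introns or exons, so the host transcripts were read by the seeds of the microRNAs they contain. A seed is bases 2 to 8 of the mature microRNA, which pair with target messages. The mature microRNAs themselves were not measured. Of 409 tested genes with a microRNA hairpin on the same strand, 100 were higher (24.4%) and 124 lower (30.3%), close to all genes. The hosts described next were chosen after their values were seen, because they share seeds, and their values are a description. Mature sequences are from RefSeq (build GRCm38.p6), with the seed in capitals.
mmu-miR-17-5p: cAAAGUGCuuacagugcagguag
mmu-miR-20a-5p: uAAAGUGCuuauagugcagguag
mmu-miR-93-5p: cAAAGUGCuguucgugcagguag
mmu-miR-106b-5p: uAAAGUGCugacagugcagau
mmu-miR-92a-3p: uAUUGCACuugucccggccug
mmu-miR-25-3p: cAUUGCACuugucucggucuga
mmu-miR-32-5p: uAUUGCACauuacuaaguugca
mmu-miR-130b-3p: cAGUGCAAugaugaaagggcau
mmu-miR-301a-3p: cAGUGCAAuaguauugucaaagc
mmu-miR-721: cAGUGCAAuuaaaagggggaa
mmu-miR-15b-5p: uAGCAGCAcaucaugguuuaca
mmu-miR-16-5p: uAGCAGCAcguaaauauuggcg
mmu-miR-107-3p: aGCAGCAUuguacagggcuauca
mmu-miR-103-3p: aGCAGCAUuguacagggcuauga

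The first 4 share the seed AAAGUGC, and the next 3 share AUUGCAC. Both seeds sit together in 2 clusters: miR-17, miR-20a and miR-92a in exons of Mir17hg (chr14:115043684-115043706 for miR-17-5p, plus strand), and miR-93, miR-106b and miR-25 within Mcm7 (chr5:138165574-138165596 for miR-93-5p, minus strand), a helicase subunit of DNA replication. Mir17hg stood at 36.98, 39.1 and 38.6 CPM untreated and 18.4, 19.3 and 18.5 CPM with estradiol. Mcm7 stood at 337, 335 and 343 CPM untreated and 107, 105 and 111 CPM with estradiol. Tmem245, the host of miR-32, stood at 131, 137 and 134 CPM untreated and 39.5, 39.3 and 43.97 CPM with estradiol. So 3 hosts of these seeds were called lower, Mir17hg just past the 2-fold limit (log2 -1.03) and the others by more (-1.65 and -1.72). The seed AGUGCAA of miR-130b and miR-301a was carried by 2610318N02Rik, at 4.598, 4.57 and 5.699 CPM untreated and 0.163, 0.136 and 0.18 CPM with estradiol. Ska2, a kinetochore gene that carries the other of these 2, stood at 40.5, 36.7 and 41.04 CPM untreated and 5.06, 4.15 and 4.19 CPM with estradiol. Both were lower (log2 -4.94 and -3.14), while Cux1, the host of miR-721 with the same seed, was called higher (log2 1.31, adjusted p = 0.0116) at 0.176 ± 0.0513 to 0.447 ± 0.172 CPM, under 1 CPM in every library.

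For the last 2 seeds the hosts did not all move one way. miR-15b and a copy of miR-16, with the seed AGCAGCA, lie in Smc4, a condensin subunit, which stood at 389.9, 382 and 410.01 CPM untreated and 131, 133 and 133 CPM with estradiol. The identical mature miR-16 is also encoded in Dleu2, a long non-coding RNA, which stood at 4.85, 4.74 and 4.26 CPM untreated and 15.4, 15.8 and 15.3 CPM with estradiol. Likewise miR-107 lies in Pank1, and copies of miR-103 lie in Pank3 and Pank2, all pantothenate kinases that begin coenzyme A synthesis, and the mature forms share the seed GCAGCAU. Pank1 stood at 8.82, 9.19 and 8.96 CPM untreated and 0.979, 0.954 and 0.945 CPM with estradiol (log2 -3.22) and Pank3 at 82.1, 82.3 and 86.2 CPM untreated and 193, 193 and 195 CPM with estradiol (log2 1.21). Pank2 stood at 34.6, 33.4 and 35.4 CPM untreated and 58.6, 59.5 and 61.02 CPM with estradiol (log2 0.79), under 2-fold and not called. Of the hosts of each of these seeds, 1 was thus called lower and 1 higher.

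**Figure D5:**
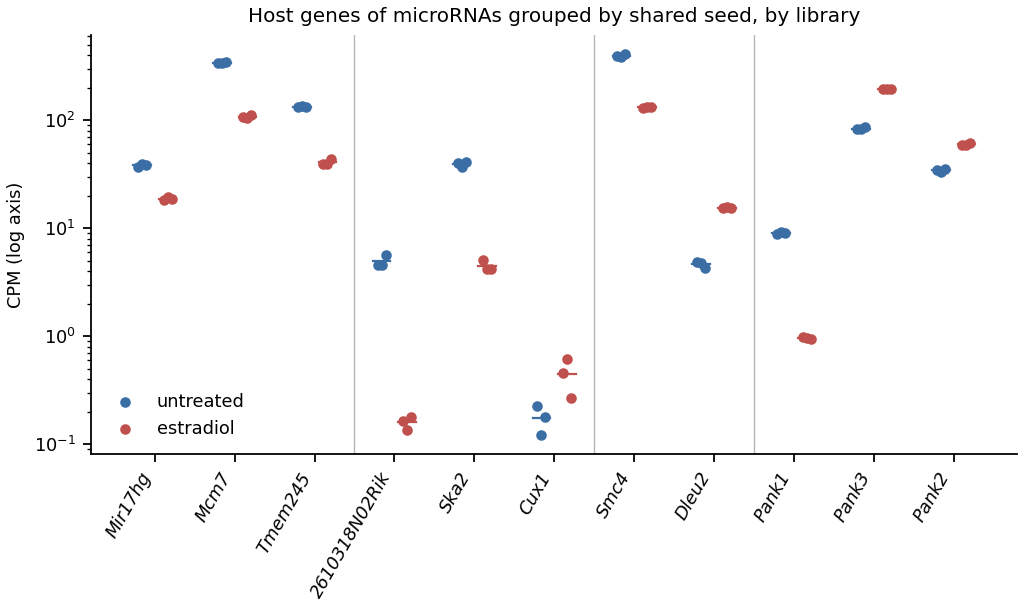
CPM of each library on a log axis, blue for untreated and red for estradiol, for the host genes of microRNAs, with grey lines between the groups that share seeds and short lines at the means. Hosts of the AAAGUGC and AUUGCAC seeds (left) are all lower with estradiol, while Smc4 and Pank1 are lower, Dleu2 and Pank3 higher, and Pank2 is under 2-fold (right).

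Promoter windows, from 250 bases before to 50 after the start of each gene, were available from RefSeq (GRCm38.p6) for 9187 of the 12115 tested genes, 1 window a gene, and were searched on both strands. AGATAA, a core form of the GATA motif, lay in 7.33% of windows of genes that rose, 6.68% of those that fell and 6.33% of those not called, against 6.69% of all tested genes and 11.4% of all promoters in the table. Among the 247 windows of genes that rose at least 16-fold, 27 held it (10.9%), and among the 405 that fell at least 16-fold, 31 (7.65%). CCGGAAGT, an ETS motif of housekeeping promoters, was present in 11.7% of genes not called, 1 of 247 that rose at least 16-fold (0.405%), 14 of 405 that fell as much (3.46%), 9.17% of tested genes and 4.0% of all promoters. TTTNNCGC, an E2F motif, lay in 12.1% of the windows of genes that fell at least 16-fold, 4.86% of those that rose as much, 8.71% of tested genes, 9.19% of genes not called and 5.27% of all promoters. The composite E-box and GATA motif of complexes of TAL1 and GATA-1 is CTG, any 9 bases and then GATAA. It occurred in 2 of 247 and 7 of 405, against 0.631% of tested genes and 0.888% of all promoters. A stretch of one window of each kind shows its form, with the fixed bases of the motif in capitals, and in both the motif lies on the strand opposite to the one printed. Zfp773, a zinc finger gene that rose from 0.04997, 0.449 and 0.411 CPM to 14.1, 13.7 and 15.03 CPM, holds it at chr7:7136912-7136971 (minus strand). Traip, a ubiquitin ligase of DNA replication at 54.2 CPM without and 3.06 CPM with estradiol, holds it at chr9:107950848-107950907 (plus strand). Traip was chosen after its values were seen.
Zfp773: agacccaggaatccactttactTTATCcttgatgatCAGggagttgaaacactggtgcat
Traip: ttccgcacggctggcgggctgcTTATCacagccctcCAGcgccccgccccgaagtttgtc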

How the data were processed

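RNA of the 12 libraries was purified with TRIzol and prepared with a TruSeq kit, per the labels' protocols. CASAVA 1.8.2, RSEM 1.2.20, Bowtie 1.1.1 and build mm10 come from the submitters' processing notes. Nothing in the sources used here gives the annotation release, read length or use of strand. Per the file headers, the deposited tables hold an expected count from RSEM for 25097 genes (reads shared between genes are divided by likelihood, so close paralogs depend on each other), with TPM, FPKM and the transcript length, also made by the authors. FPKM and length were not used. Symbols and positions are from GENCODE M21, on the same assembly, which matched 24746 identifiers.

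Expected counts were rounded, filtered with filterByExpr (12115 genes kept), scaled by TMM and fitted in edgeR 4.0.16 (R 4.3.3) with 1 mean for each of the 4 groups, using all 12 libraries. The quasi-likelihood F test with Benjamini-Hochberg adjustment over all tested genes was used, and a call needs an adjusted p below 0.05, a change of at least 2-fold and no overlap between the groups. The common biological coefficient of variation was 0.0334. Each SE is approximate: the size of the log2 fold change divided by the root of its F statistic. Replicates of a group correlated at 0.9979 or more, and their counts differed by more than sampling noise. Same-numbered replicates did not deviate together (r of -0.101, 0.008 and -0.068), so no pairing was used. The pipeline was tested on simulated data.

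The 49 families and 6 marker lists were chosen, mostly as whole families by symbol, with earlier results of these data known. From each family the rule named up to 3 called rises and 3 falls with at least 5 CPM in the higher group and the member with the highest TPM, and over all genes the 15 largest rises and falls with at least 10 CPM. Named genes of unknown role were left out, and a few genes and 1 family are not reported here. Kmt5a and Atp2a2 were added after their values were seen. Where a group had 20 counts or fewer, the ratio of summed counts has an exact 95% interval, which covers counting error only. A member that passed the filter only through its higher group had to differ. Exons of these named genes overlap those of another annotated gene, and their reads may be shared: Actl6a, Ampd3, Atp8a1, Bet1l, Ccnc, Cers2, Chd2, Cpeb2, Cpeb3, Ddx17, Ddx39, Dusp1, Elf1, Fhod1, Gnas, Gng10, Hmga1, Hmgb1, Hoxc5, Igf2bp3, Kmt2e, Lyl1, Lyn, Mxd3, Mxi1, Myl12a, Rcc1, Recql4, Sept1, Sgms1, Smarcd1, Snap29, Suv39h2, Tmem184a, Tpr, Tuba4a, Tubb4b and Ypel1. DESeq2 1.42.0, limma 3.58.1 on log2(TPM + 1), 3 other scalings, 2 other filters, a fit to the 6 WT libraries, a replicate block and leaving out each WT library were tried.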

Additional observations from a re-analysis of the deposited data

How the results depend on the processing

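Higher and lower calls numbered 3175 and 3664. They were 3204 and 3553 in a fit to the 6 WT libraries, 3295 and 3591 with DESeq2 size factors, 3175 and 3664 with upper quartile scaling, 3260 and 3579 by DESeq2, 3519 and 3991 with no filter, and 2384 and 2732 with at least 5 CPM in 3 libraries. With library totals only they were 2417 and 4426. By limma on log2(TPM + 1) they were 1817 and 3675, and 5 called genes took the other sign, on a scale that shrinks low values. With the replicate number as a block they were 3167 and 3658, and the numbers do not pair the libraries. Leaving out 1 library gave 3215 to 3299 higher and 3686 to 3712 lower, with 42 to 47 genes switched on and 89 to 93 switched off. With limits of 0.5 and 20 CPM, 13 were switched on and 10 off. Of the 338 genes named by rule, 5027 values under alternatives kept their call, 34 lost and 6 gained it, and none changed sign. Most of these genes were picked for large changes in the same libraries, so kept calls and signs were likely in advance and say little about other genes. Of the medians of lists under alternatives, 757 stayed within 0.1 of the main value beyond the shift of all genes and 66 did not. Of the list medians printed, those of the regulators of G protein signalling (1.02, and -1.83 under the stricter filter) and of the interferon list changed sign. Genes at a few counts have folds set by counting error.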

Other observations

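Whole families that the rule did not list were looked up by symbol after their values were seen, and are given as values with no test. All 5 yippee-like genes, small zinc-binding proteins linked to growth arrest, were higher with estradiol. Ypel3 stood at 2.799, 2.37 and 2.798 CPM untreated and 758, 743 and 755 CPM with estradiol and Ypel2 at 3.62, 3.92 and 3.902 CPM untreated and 499, 496 and 498 CPM with estradiol. Ypel5 went from 18.9 ± 0.525 to 367 ± 3.14 CPM and Ypel1 from 0.915 ± 0.0529 to 3.86 ± 0.561 CPM. Ypel4 had 9 counts against 1973, a ratio of 276-fold (95% counting interval 145 to 604). All 5 were called higher, against 26.2% of all tested genes, but the family was picked for its values, so the count is a description. A call already requires that the groups do not overlap, and Ypel4 passed the filter on low counts only through estradiol-treated libraries.

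The tubulins of the microtubule changed isotype. Of 11 tested alpha and beta tubulins, 7 were higher and 2 lower. The broadly expressed Tuba1b stood at 1704, 1685 and 1748 CPM untreated and 157, 154 and 158 CPM with estradiol and Tubb5 at 1263, 1233 and 1264 CPM untreated and 249, 254 and 242 CPM with estradiol, the 2 that were lower. Tuba4a stood at 216, 212 and 222 CPM untreated and 1723, 1709 and 1706 CPM with estradiol, Tubb2a at 5.12, 4.78 and 5.03 CPM untreated and 115, 115 and 114 CPM with estradiol and Tubb3, best known from neurons, at 1.22, 1.103 and 1.104 CPM untreated and 37.2, 36.7 and 34.5 CPM with estradiol. Tubb1, the beta tubulin of platelets, had 14 counts against 5641, a ratio of 507-fold (95% counting interval 302 to 928). Tuba1a and Tubb4b were under 2-fold. Tubulin genes are near copies of each other, so their counts depend on how RSEM divided shared reads.

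Among the proteins that pair with MAX and oppose MYC, Mxd1 stood at 4.92, 5.35 and 4.62 CPM untreated and 221, 219 and 229 CPM with estradiol, Mxd4 at 8.02, 6.53 and 6.83 CPM untreated and 219, 209.6 and 214 CPM with estradiol and Mxi1 at 42.6, 40.3 and 42.7 CPM untreated and 303, 299.8 and 306 CPM with estradiol. Mxd3 went from 1.42 ± 0.385 to 0.446 ± 0.153 CPM, and Mnt and Mga were under 2-fold. Of 8 butyrophilin genes in the tables, 4 could be tested and each of these was higher, Btnl6 from 0.445 ± 0.213 to 45.3 ± 2.07 CPM and Btnl4 from 0.299 ± 0.131 to 28.2 ± 0.681 CPM beside Btn1a1. Butyrophilins are immunoglobulin-like surface proteins, and those tested passed the filter mainly through the estradiol libraries.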
